A study of Mus musculus with 8 samples.

Results

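The comparison covers the 3 clonal expansions that the labels place in an integrin alpha4-low subclass and the polyclonal CD8 memory cells sorted from the same animals. They are 6 of the 8 arrays of the study, taken as the samples numbered 2, 3 and 4 in their titles. The labels chose them, not a measured value. An age-associated clonal expansion is a population of CD8 T cells that descends from a single cell, carries a single T cell receptor and, with age, takes up a large share of all CD8 memory cells of its host. The question that the design addresses is what such a clone expresses beside the other memory cells of its own host.

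Each sample was sorted from pooled spleen and lymph node cells of a female mouse as CD8+ CD122+ cells without MHC class II. CD122 is the interleukin-2 receptor beta chain, which memory CD8 cells carry in large amounts. An expansion carried the V beta chain of its clone (Vb8.1/8.2 in mouse 2, Vb8.3 in mouse 3, Vb14 in mouse 4), and its partner lacked that chain. Mouse 2 was a C57BL/10SnJ animal of 20 months, mouse 3 a C57BL/10SnJ animal of 23 months and mouse 4 a B10.BR animal of 23 months. Sort purity was 95, 96 and 98% for expansions 2, 3 and 4 and 75, 66 and 97% for their partners. Each expansion is 1 clone of 1 animal, so the 3 pairs differ in clone, V beta chain and, for mouse 4, strain. The descriptions of expansions 3 and 4 number them 4 and 5, and the titles were followed here.

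The integrin alpha4 chain pairs with a beta1 or beta7 chain and lets lymphocytes bind the vessel wall and gut endothelium. Effector and memory CD8 cells use it to enter inflamed tissue. Memory CD8 cells differ further in their granzymes, in receptors shared with natural killer (NK) cells and in the transcription factors that antigen signals leave behind. Persistent antigen is known for keeping inhibitory receptors and some of these factors high.

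The arrays hold a linear signal for each probe set, scaled so that every array has a trimmed mean of 500, and differences were taken on log2(signal + 5). A level of background, from 27 probe sets for bacterial genes that were not spiked in, lay between 33.7 and 61.9 on the 6 arrays. All 10 markers of CD8 memory cells on the array were above it in every sample. Probe sets numbering 22518, for 10341 genes, had a mean above the median of the table and were tested. A probe set could pass this filter through its brighter group alone.

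The 3 pairs shared little of their profiles. Differences between expansion and partner correlated across probe sets at 0.07 between mice 2 and 4, at 0.02 between mice 3 and 4 and at 0.01 between mice 2 and 3, as a description over probe sets that are not independent. At least a 2-fold difference was found in 28.4% of probe sets in mouse 2, in 25.5% in mouse 3 and in 16.8% in mouse 4. In mouse 2 these were mostly lower in the expansion (4688 lower and 1700 higher), whereas in mouse 4 more were higher (2153 higher and 1629 lower). Of 2714 probe sets that differed at least 4-fold in some pair, 24 did so with the same sign in all 3, and 112 differed 4-fold in opposite directions in a pair of mice. Signals under background were not left out of these counts. Col1a2, a collagen chain of fibroblasts, was of the latter kind, with a difference of 2.94 in mouse 2 and -2.87 in mouse 3. In mouse 3 its clone read 4.82, under the background level of 61.9 on that array, and its partner 66.8. The size of the difference in mouse 3 is thus uncertain.

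Differences of 2-fold and more that the clones shared were mainly lower signals. The same sign in 3 of 3 pairs was found for 5655 probe sets (25.1% of those tested), of which 3390 were lower (15.1%) and 2265 higher (10.1%) in the expansions. At least a 2-fold difference in every pair was found for 141 (0.626%), 116 of them lower (0.515%) and 25 higher (0.111%). At least 4-fold in every pair were 23 lower and 1 higher. The prevalence of lower probe sets among small differences depended on the scaling. The median difference was -0.23 in mouse 2, 0.01 in mouse 3 and near 0 in mouse 4, and with each array centred on its median the same-sign split became 2204 lower and 3717 higher. With quantile normalization it was 2798 lower and 2941 higher. The 2-fold split kept its direction, at 75 lower and 59 higher after centring and 93 lower and 46 higher after quantile normalization.

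**Figure D1:**
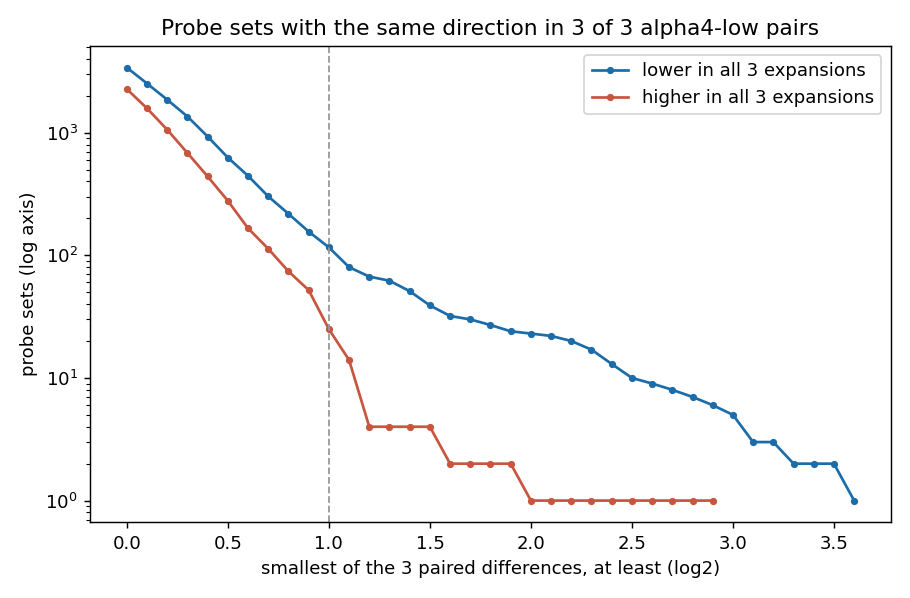
Number of probe sets (log axis) whose difference between expansion and partner had the same sign in all 3 alpha4-low pairs and was at least the size on the horizontal axis (log2 units); the dashed line marks a 2-fold difference. At 1 log2 unit 116 probe sets were lower and 25 higher, and at 2 units 23 were lower and 1 higher.

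In the paired limma fit, which keeps the mouse as a block, 14 probe sets passed an adjusted p of 0.05 (0.0622%), 13 lower (0.0577%) and 1 higher (0.00444%) in the expansions. At an unadjusted p of 0.05 the counts were 873 lower and 276 higher. The 14 held 11 probe sets for 1 gene each, from 9 genes. They were Itga4, Gzmk, Ikzf2, Nr4a2, Casp1, Klra8, Coch and Rpl39l, all lower, and Slc35f3, higher. The pairs weighed unequally on the count: it became 17 without mouse 2, 115 without mouse 3 and 132 without mouse 4. All 14 were among the calls made without mouse 3 and without mouse 4. With quantile normalization Itga4, Gzmk and Slc35f3 kept their calls. Coch, Ikzf2, Klra8, Nr4a2, Casp1 and Rpl39l lost theirs, at adjusted p of 0.0504 to 0.119 for their main probe sets. With a pseudocount of 1, Ikzf2 was called too, and Nr4a2, Rpl39l, Casp1, Klra8 and Coch stood at 0.0523 to 0.0692. No probe set passed when the block or the intensity trend of the variance was left out of the fit.

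Itga4 encodes the chain that names the subclass and so checks the labels. Its brightest probe set had a signal of 197 in expansion 2, 434.5 in expansion 3 and 120 in expansion 4, against 2676, 8221 and 1559 in their partners. Every expansion lay below every polyclonal sample, and all 6 signals were above background. The difference was -3.87 ± 0.41 (limma-moderated SE here and below, n = 3 pairs, adjusted p = 0.00916). It lay between -3.65 and -4.23 in the single pairs. A second probe set gave -3.94 ± 0.50 (adjusted p = 0.0149). A dimmer one was lower in mice 2 and 3 but not in mouse 4, with 64.5 for the clone and 50.6 for its partner, and did not pass (adjusted p = 0.958).

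Gzmk, the gene of granzyme K, a protease of cytotoxic granules, had the largest mean difference of the 9 genes. Its signal was 108, 212.5 and 226 in expansions 2, 3 and 4 and 3444, 11520 and 1906 in their partners. The groups did not overlap, and the dimmest partner was still several times brighter than the brightest clone. Gzmk fell by 4.57 ± 0.51 on the log2 scale (SE, n = 3 pairs; adjusted p = 0.00916). Of 15 tested genes of cytotoxic granules and death ligands, Gzmk was the only one to pass, and 3 of 15 were lower and 0 higher in every pair, with a median difference of -0.25. The corresponding shares over all genes, taken by their brightest probe set, were 13.4% lower and 10.9% higher in every pair, and 0.0774% lower and 0.00967% higher past the threshold. The median over all genes was -0.02. Gene lists here and below were chosen with earlier results of these data known, so their shares are a description. Granzyme A moved in opposite directions, at -3.70 in mouse 3 and 1.97 in mouse 4, and granzyme B had a mean difference of -0.02.

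The promoters of Itga4 and Gzmk are shown because these genes head the list of lower genes and both windows hold the core letters bound by T-box factors, the family of T-bet and Eomes. The sequences are those of RefSeq for GRCm38.p6, from 250 bases before the start of the gene to 50 after it. Capitals mark GGTGTGA, searched on both strands. Itga4 lies at chr2:79255176-79255475 on the plus strand and Gzmk at chr13:113180916-113181215 on the minus strand.
Itga4: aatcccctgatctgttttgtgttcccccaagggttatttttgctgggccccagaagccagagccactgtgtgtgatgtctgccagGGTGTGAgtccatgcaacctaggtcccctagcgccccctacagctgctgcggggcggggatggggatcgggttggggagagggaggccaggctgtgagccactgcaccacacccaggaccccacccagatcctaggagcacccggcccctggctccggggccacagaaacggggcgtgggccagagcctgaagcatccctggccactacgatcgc
Gzmk: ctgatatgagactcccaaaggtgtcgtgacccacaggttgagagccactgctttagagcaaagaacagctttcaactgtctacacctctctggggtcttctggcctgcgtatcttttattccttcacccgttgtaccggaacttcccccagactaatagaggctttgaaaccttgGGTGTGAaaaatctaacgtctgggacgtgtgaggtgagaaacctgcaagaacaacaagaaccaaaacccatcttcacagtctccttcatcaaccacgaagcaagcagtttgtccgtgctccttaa
These letters occur in 3.98% of the 32851 promoters of the table and in 2.83% of the 106 promoters matched to genes that were 2-fold lower in every pair. The match describes these windows only. Eomes itself was bright in every sample, at 12440, 8505 and 15580 in expansions 2, 3 and 4 and at 11800, 15350 and 14450 in their partners.

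Slc35f3 was the 1 gene past the threshold in the other direction. It belongs to the SLC35 family of nucleotide sugar and thiamine transporters. Its signal was 879, 338 and 751 in expansions 2, 3 and 4 and 41.3, 38.0 and 52.6 in the partners. The partners lay near background, 2 of 3 of them above it, and every clone was well clear of it. With a mean of 43.98, the partners were under the filter level of 48.86. Slc35f3 thus passed the filter on mean signal through the expansions alone, and its fold is taken against signals near background. The gene rose by 3.65 ± 0.44 on the log2 scale (SE, n = 3 pairs; adjusted p = 0.0146). Of 19 tested SLC35 genes, 2 were higher and 2 lower in every pair, against 10.9% and 13.4% of all genes.

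**Figure D2:**
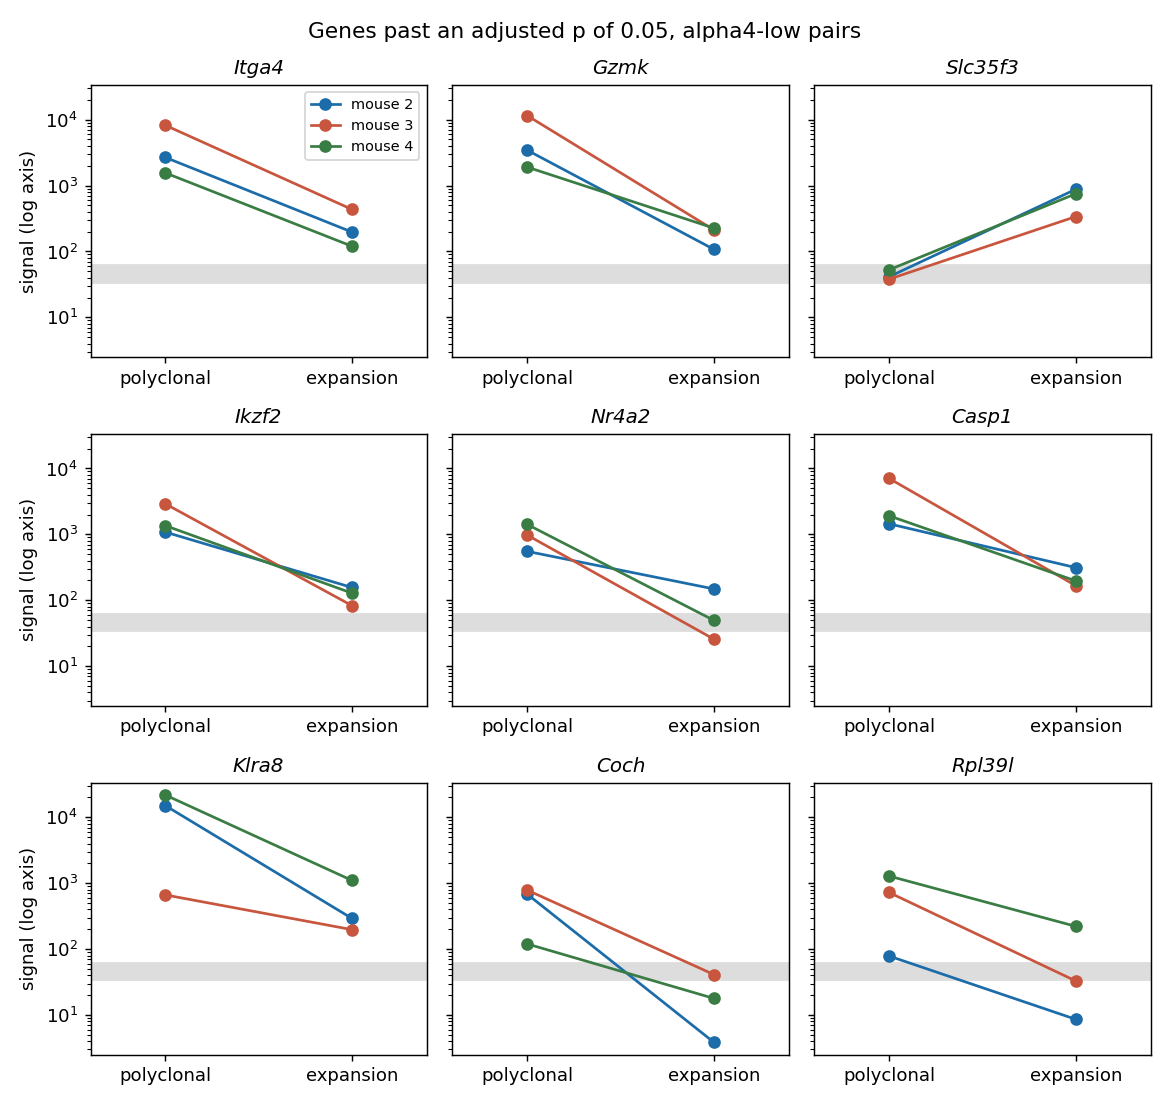
Signal (log axis) of the 9 genes past an adjusted p of 0.05 in each polyclonal sample and in the clonal expansion of the same mouse; lines join the samples of a mouse, and the grey band is the range of the background level, 33.7 to 61.9. The lines of 8 genes run downward in all 3 mice and those of Slc35f3 upward, and Klra8 and Rpl39l are the genes whose groups overlap.

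Ikzf2 and Nr4a2 were the 2 genes past the threshold among 15 tested transcription factors that antigen receptor signals induce or that mark exhaustion. Ikzf2 encodes Helios, an Ikaros family factor of regulatory T cells and of activated and exhausted CD8 cells. Its signal was 156.5, 83.0 and 128 in expansions 2, 3 and 4 and 1085, 2913 and 1360 in their partners. The groups lay far apart, with mouse 3 showing both the brightest partner and the dimmest clone. Ikzf2 fell by 3.72 ± 0.48 (SE, n = 3 pairs; limma adjusted p = 0.0154), and a second probe set fell by 3.26 ± 0.51 (adjusted p = 0.0474).

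Nr4a2 encodes an orphan nuclear receptor that is induced by antigen receptor signals and is part of exhaustion programmes. Its signal was 149, 25.7 and 49.6 in expansions 2, 3 and 4 and 553, 976 and 1418 in their partners. Mouse 2 had the smallest difference, and the clone of mouse 3 was below background. Nr4a2 fell by 3.85 ± 0.57 (SE, n = 3 pairs; adjusted p = 0.0359). Both other tested probe sets of the gene were lower in every pair, at -2.66 and -1.05, and did not pass. The promoter of Nr4a2 is shown for its repeated half-sites of CREB, a factor that T cell receptor signals activate; capitals mark TGACG on either strand. It lies at chr2:57123954-57124253 on the minus strand of GRCm38.p6.
Nr4a2: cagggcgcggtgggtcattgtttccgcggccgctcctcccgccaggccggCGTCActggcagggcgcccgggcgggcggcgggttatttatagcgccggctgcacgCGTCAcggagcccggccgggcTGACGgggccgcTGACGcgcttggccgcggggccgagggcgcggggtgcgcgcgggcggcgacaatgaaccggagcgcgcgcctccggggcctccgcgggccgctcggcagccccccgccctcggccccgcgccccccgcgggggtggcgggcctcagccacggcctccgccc
The window holds 4 matches. At least 1 match is found in 20.8% of all promoters, in 26.4% of the promoters of genes 2-fold lower in every pair and in 8 of the 20 promoters of genes 2-fold higher in every pair.

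Of the 15 tested factors, 7 were lower and 0 higher in every pair, against 13.4% and 10.9% of all genes. The median difference was -0.95. At least 2-fold lower were 4 of them (0.551% of all genes were 2-fold lower in every pair, and 0.638% 2-fold in either direction). The others beyond 2-fold did not pass. Tox2, a relative of the exhaustion factor Tox, stood at -2.72 ± 0.50 (adjusted p = 0.0991), with 182, 148 and 113 in the clones and 613, 2840 and 552 in the partners. Maf, which drives interleukin-10 in T cells, stood at -3.13 ± 0.53 on its probe set with the smallest p (adjusted p = 0.0631). Its clones read 95.0, 113 and 107, close to one another, and its partners 818, 3033 and 345. The median difference of the list was -2.24 in mouse 3 but -0.40 in mouse 2 and -0.45 in mouse 4. Tox was lower in every pair, at -5.02 in mouse 3 and at -0.57 and -0.35 in mice 2 and 4. Nr4a1 and Egr3, which the same signals induce, had mean differences of -0.17 and -0.09.

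Of 12 tested inhibitory receptors, which mark chronically stimulated CD8 cells, none passed the test. In every pair 4 were lower and 1 higher, with a median of -0.15. Over all genes 13.4% were lower, 10.9% higher and 0.551% at least 2-fold lower in every pair. Ctla4, which competes with CD28 for its ligands, read 109, 10.4 and 82.1 in expansions 2, 3 and 4 and 748, 2134 and 454 in their partners. Pdcd1, the gene of PD-1, read 7.05, 3.11 and 43.7 against 148, 415 and 177. Havcr2, the gene of TIM-3, read 10.1, 87.3 and 24.7 against 122, 273 and 167.5. In each of these genes every clone lay below every partner. The clone of mouse 3 was below background for Ctla4, those of mice 2 and 3 were for Pdcd1, and those of mice 2 and 4 were for Havcr2. Their differences were -4.08 ± 0.73, -3.75 ± 0.74 and -2.40 ± 0.56 (adjusted p = 0.0835, 0.156 and 0.432). They were the 3 of the 12 with a 2-fold difference in every pair, and Btla was the higher one. Cd160 and Lair1 had mean differences of 0.03 and 0.05.

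Receptors shared with NK cells formed the list with the lowest median, -1.71 over 11 tested genes, of which 8 were lower and 0 higher in every pair and 4 at least 2-fold lower. Over all genes 13.4% were lower, 10.9% higher and 0.551% at least 2-fold lower in every pair. Klra8 belongs to the Ly49 receptors, which bind MHC class I. Its signal was 292, 197.5 and 1103 in expansions 2, 3 and 4 and 15080, 665 and 21820 in their partners. The partner of mouse 3 was dimmer than the clone of mouse 4, so the groups overlapped, but within each mouse the clone was the dimmer sample. Klra8 fell by 3.90 ± 0.61 (SE, n = 3 pairs; adjusted p = 0.0470). Klra7, of the same family and gene cluster, stood at -2.67 ± 0.47 (adjusted p = 0.0835). Ly49 genes are near-copies of one another, and these probe sets are of a kind that can bind several, so which member was measured is uncertain. Expression of Ly49 receptors on only some cells of a population is known, and these signals are averages over each sample.

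Klrg1, a receptor for cadherins on terminally differentiated effector cells, read 192, 142 and 152 in the clones and 679, 1421 and 1168 in the partners. The clones were close to each other and all below the partners. The difference was -2.66 ± 0.44 and narrowly missed the threshold (adjusted p = 0.0571). Klre1 read 1597, 96.4 and 3592 against 6368, 1449 and 10650, with a difference of -2.47 ± 0.48 (adjusted p = 0.150). Klrd1, the CD94 chain, had a mean difference of 0.35 and differed in sign between the pairs.

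The genes of the inflammasome and interleukin-18, by which cells sense cytosolic danger and release inflammatory cytokines, were lower in 6 of 8 tested members and higher in 0 in every pair, with a median of -1.31. Over all genes 13.4% were lower and 10.9% higher in every pair. Casp1 encodes the protease that matures interleukin-1 beta and interleukin-18. Its signal was 313, 167 and 197 in expansions 2, 3 and 4 and 1447, 7066 and 1914 in their partners. All clones lay below all partners, with the widest gap in mouse 3. Casp1 fell by 3.60 ± 0.55 (SE, n = 3 pairs; adjusted p = 0.0461). Casp4, which senses bacterial lipopolysaccharide in the cytosol and is the next gene to Casp1 on chromosome 9, read 130, 112 and 83.7 against 492, 1954 and 589.5. It missed the threshold at -2.90 ± 0.47 (adjusted p = 0.0571). Il18 and the DNA sensor Aim2 were lower in every pair too, but stood at only -0.46 and -0.20 in mouse 4. They did not pass (adjusted p = 0.813 and 0.744).

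Coch and Rpl39l complete the genes past the threshold. Coch encodes cochlin, a secreted protein best known from the inner ear. Its signal was 3.86, 41.2 and 17.9 in expansions 2, 3 and 4, in no case above background, and 682.5, 786 and 120 in the partners, in all cases above it. With each clone set to the background level of its array, the geometric mean of the gene was at least 8.42-fold lower in the clones. The bound is smaller in mouse 4, where the partner read 120 and the background level of the clone's array was 33.7. The limma adjusted p was 0.0470 on the measured signals and 0.009545 with signals under background set to it. Coch passed the filter on mean signal through its partners alone. Rpl39l encodes a variant of ribosomal protein L39. It read 8.61, 32.9 and 221.5 in the clones and 78.6, 723 and 1285 in the partners, so the clone of mouse 4 was brighter than the partner of mouse 2, and the clones of mice 2 and 3 were below background. It fell by 3.13 ± 0.49 (SE, n = 3 pairs; adjusted p = 0.0470), and this call was lost with signals under background set to it, whereas that of Coch was kept. Rpl39l too passed the filter on mean signal, taken on the log scale, through its partners alone. Among 18 tested genes of cytosolic ribosomal proteins, 3 were higher and 1 lower in every pair, against 10.9% and 13.4% of all genes.

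Further lower genes did not pass the threshold. All but Rab39b had a probe set at a limma adjusted p of 0.0571 to 0.0898. Dsg2, the desmosomal cadherin desmoglein 2, had even differences, -2.59, -2.45 and -2.31 in mice 2, 3 and 4 (mean -2.45 ± 0.40, adjusted p = 0.0571). Iigp1, an interferon-induced GTPase, stood at -2.46 ± 0.41 (adjusted p = 0.0631). Of 20 tested interferon response genes, 4 were lower and 0 higher in every pair (13.4% and 10.9% over all genes), with a median of -0.09. Fcgr2b, the inhibitory receptor for IgG, stood at -2.60 ± 0.44 on one probe set (adjusted p = 0.0631), but another probe set of the gene had 0.63 in mouse 3 and -1.91 and -2.36 in mice 2 and 4. The calcium-binding protein S100a4, high in effector cells, read 326, 413 and 224 against 2958, 5928 and 568 (-2.77 ± 0.50, adjusted p = 0.0898). Ryr3, a calcium release channel, was below background in all 3 clones and above it in all 3 partners. Its geometric mean was at least 4.44-fold lower (limma adjusted p = 0.0735). Rab39b, a small GTPase, likewise had no clone above background, and its geometric mean was at least 3.35-fold lower (limma adjusted p = 0.276). The bounds of Ryr3 and Rab39b are means over the 3 pairs, not limits for each pair. Both genes passed the filter on mean signal through their partners alone. Their adjusted p come from the limma fit on the measured signals, under background in the clones, and do not test these bounds. Lratd1 read 5.53, 10.6 and 41.6 in the clones, above background only in mouse 4, and 103, 214.5 and 350 in the partners (adjusted p = 0.0835). A second probe set of Dsg2 was lower in every pair as well (-2.39 ± 0.40, adjusted p = 0.0631). Further probe sets of Dsg2, Ryr3 and Rab39b differed in sign between the pairs.

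The other integrin subunits showed smaller differences than Itga4. Of 12 tested subunits, 4 were lower and 0 higher in every pair, and Itga4 was the only one beyond 2-fold in every pair. Itga6, Itgb2 and Itgal were the others, at -0.80, -0.55 and -0.41 (adjusted p of 0.964, 0.975 and 0.985). Itgb1 and Itgb7, the partner chains of alpha4, differed in sign between the pairs. Itgb1 stood at 0.49, -0.50 and 0.67 in mice 2, 3 and 4, and Itgb7 at -2.25, 0.75 and -1.27. The median over the family was -0.24, against -0.02 over all genes, of which 13.4% were lower and 10.9% higher in every pair.

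Genes of cell division did not pass the test. Of 30 tested DNA replication genes, 9 were higher and 1 lower in every pair, and of 26 tested mitosis genes 7 were higher and 0 lower. Over all genes 10.9% were higher and 13.4% lower in every pair. The median differences of the 2 lists were 0.50 and 0.47. Dscc1, a loader of the replication clamp, read 1202, 1034 and 877 against 224, 201 and 601. Every clone lay above every partner, and mouse 4 had the smallest difference. The mean difference was 1.76 ± 0.47 (SE, n = 3 pairs; limma adjusted p = 0.613).

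Chek1, the kinase of the replication checkpoint, read 515, 233.5 and 500 in the clones against 120, 107 and 174 on its probe set with the smallest p (1.55 ± 0.42, adjusted p = 0.646). Its brightest one was higher in every pair as well, but by 0.30 in mouse 4. Kntc1, a kinetochore protein, had the least spread among the clones, at 374, 364 and 362, against 117, 121 and 163 in the partners. Kntc1 stood at 1.44 ± 0.41 (adjusted p = 0.744) and was the 1 mitosis gene that was 2-fold higher in every pair (0.087% of all genes). Cdc6, Bub1 and Top2a were also higher in every pair, at 1.43, 1.26 and 0.93. In mouse 4 the medians of both lists were near 0 (-0.09 and -0.05), against 0.48 and 0.34 in mouse 2 and 0.92 and 0.90 in mouse 3. Dtl, which targets replication factors for degradation, shows how far probe sets can part: one was higher in every pair (1.81 ± 0.46), and another was lower in every pair (-0.91 ± 0.49).

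Other higher genes were of mixed function. Ube2e2, a ubiquitin-conjugating enzyme, stood at 2.05 ± 0.50, with 221, 117 and 312 in the clones and 45.4, 17.8 and 103 in the partners. Hps4, needed for lysosome-related organelles, stood at 1.81 ± 0.44, with 435, 620 and 1646 against 144.5, 283 and 237. The clones were above the partners in both genes, yet neither passed (adjusted p = 0.507 and 0.508). Me2, Myh10, Psrc1, Samhd1, Gm6958, Tbc1d24 and Lasp1 each had a probe set that was higher in every pair, with means of 1.22 to 1.78. Second probe sets of Me2 and Lasp1 were lower in every pair, at -0.78 and -0.63. Qser1, 1700018B08Rik, Apcdd1, Aldh18a1, Tmem63b and Itsn1 were at least 2-fold higher in every pair, with means of 1.21 to 1.98. Adjusted p for these higher probe sets lay between 0.613 and 0.964.

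Much of the memory CD8 profile did not part in a common direction. Cd8a on its brightest probe set read 17740, 30820 and 13070 in the clones and 19780, 23890 and 14480 in the partners. Il2rb, the gene of CD122, read 301, 375.5 and 309.5 against 298, 175 and 436.5. Their mean differences were 0.02 ± 0.32 and 0.20 ± 0.44. Another Cd8a probe set was lower in every pair (-0.59), a dimmer one higher in every pair (0.40) and the other two mixed. Il7r, the interleukin-7 receptor of long-lived memory cells, Il18r1, Cd44 and the chromatin organizer Satb1 were slightly higher in every pair on their brightest probe sets, at 0.29, 0.61, 0.67 and 0.67, with adjusted p of 0.964 to 0.985. Further probe sets did not all share that sign: the second one of Il7r was lower in every pair (-0.40), both others of Cd44 were mixed, and of 4 others of Satb1 1 was higher in every pair and 3 were mixed. Of 17 memory cytokine receptors, 2 were higher and 1 lower in every pair, against 10.9% and 13.4% of all genes.

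Of 14 tested naive and memory fate factors, 5 were lower and 2 higher in every pair; Myb, Klf2 and Id3 stood at -1.54, -0.95 and -1.37. Of 17 homing and egress receptors, 4 were higher and 2 lower, and Cd69, an early activation antigen, was among the higher ones at 0.85. Effector cytokines and chemokines were lower in 4 of 13 and higher in 0. S100, annexin and galectin genes were lower in 3 of 17 and higher in 1. In the other 14 lists of cell function, at most 4 members were lower and at most 3 higher in every pair, the medians lay between -0.34 and 0.13, and Slc35f3 was the only gene to pass. Over all genes 13.4% were lower and 10.9% higher in every pair.

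**Figure D3:**
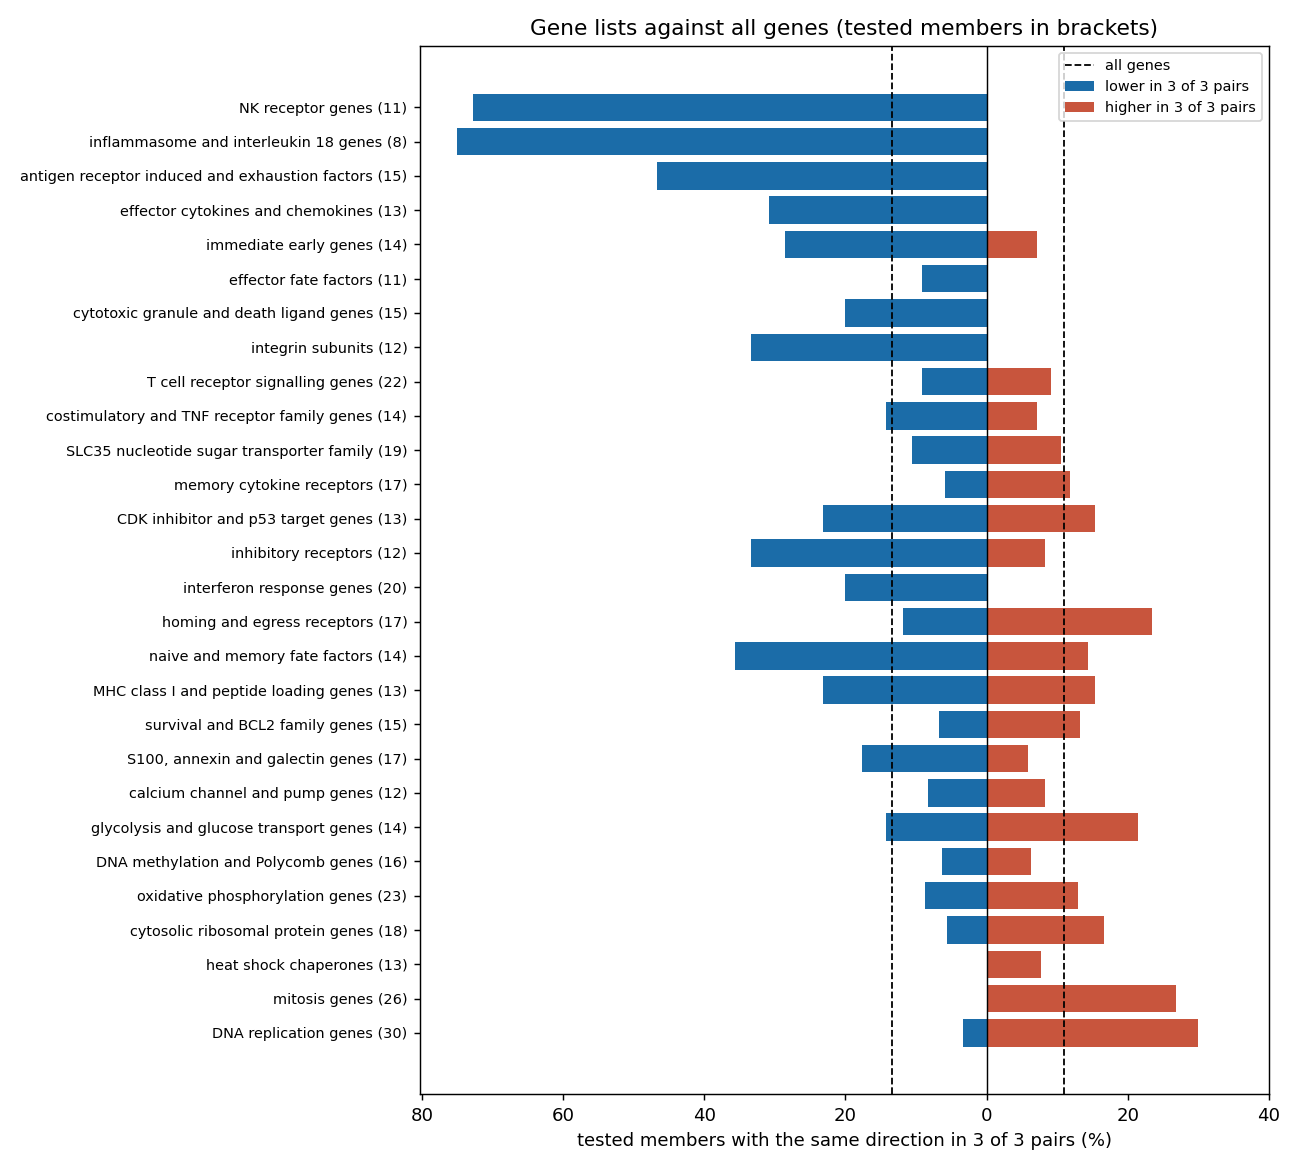
Share of the tested members of each gene list (number in brackets) that were lower (blue, to the left) or higher (red, to the right) in the expansion in all 3 alpha4-low pairs, ordered by median difference; dashed lines are the shares over all genes, 13.4% lower and 10.9% higher. The blue bars are longest for the inflammasome (75.0%) and NK receptor (72.7%) lists, and the red bars for the DNA replication (30.0%) and mitosis (26.9%) lists. Lists and members were chosen with earlier results of these data known.

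The 1 alpha4-high expansion, from a C57BL/10SnJ mouse of 20 months with a Vb3 clone, went the other way in most of the genes above. It has no replicate, and its variation was assumed to equal that of the other pairs. Itga4 read 11820 in that expansion and 3182 in its partner, a difference of 1.89. Gzmk stood at 2.42 there, Casp1 at 1.46, Nr4a2 at 1.74, Coch at 3.55 and Klrg1 at 3.34. Of the 116 probe sets that were 2-fold lower in every alpha4-low pair, 78 had the opposite sign in that pair and 38 the same, with a median of 0.81. For the 25 that were higher, the split was 14 opposite and 11 the same.

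A smaller set had the same sign in the single alpha4-high pair as in the alpha4-low pairs. Klra8, Rpl39l, Dsg2 and Klra7 were lower in the alpha4-high expansion too, at -3.05, -3.05, -2.57 and -3.71, and Slc35f3 was higher there, at 2.00. Slc35f3 read 58.8 in that expansion and 10.9 in its partner, and Rpl39l 3.11 and 62.15, against background levels of 46.6 and 48.15. The dimmer sample was thus below background for both, and the size of these differences is uncertain. Dsg2 and Klra7 read 44.4 and 43.0 in that expansion, also below background. Chek1 and Kntc1 were also on the same side, at 0.22 and 0.93. The difference between the subclasses passed the test for 0 of the 22518 probe sets in limma (0%), with 1582 at an unadjusted p under 0.05 and a smallest adjusted p of 0.0565. With the filter on the mean of all 8 arrays, an alternative added after the data had been examined, 12 passed. For Gzmk and Itga4 the difference between subclasses was -7.00 ± 1.02 and -5.76 ± 0.80, both with an adjusted p of 0.0617.

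**Figure D4:**
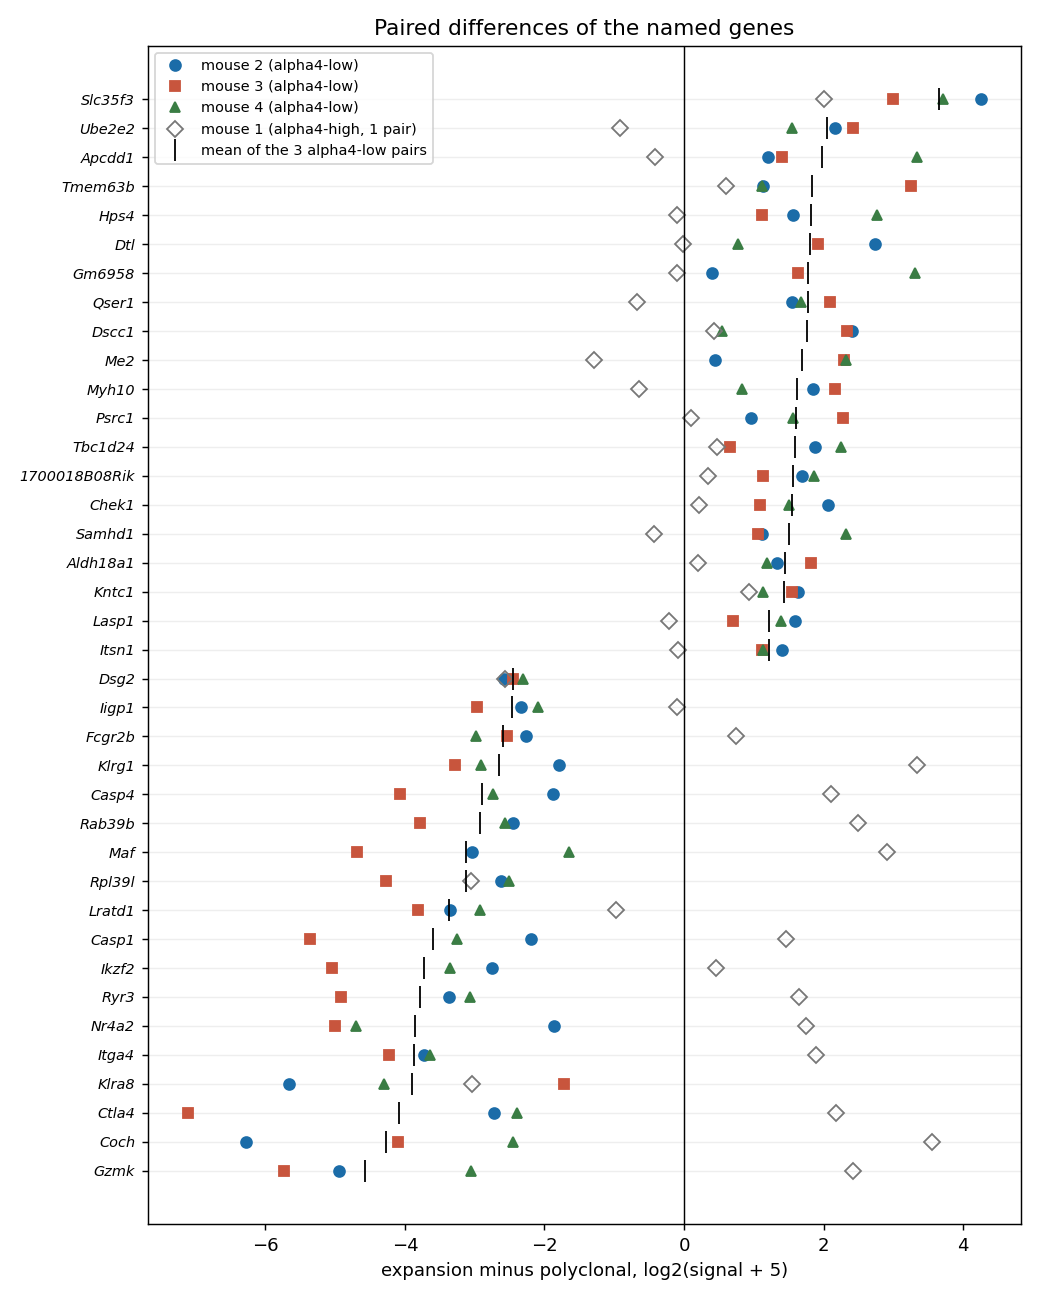
Difference between expansion and polyclonal partner, on log2(signal + 5), for 38 named genes in each alpha4-low pair (filled symbols), their mean (black bar) and the single alpha4-high pair (open diamonds). All filled symbols of a gene lie on the same side of 0. The open diamonds lie on the other side for Itga4 (1.89), Gzmk (2.42) and Klrg1 (3.34). They lie on the same side for Klra8 (-3.05), Rpl39l (-3.05) and Slc35f3 (2.00). For Rpl39l and Slc35f3 the dimmer sample of the alpha4-high pair was below background.

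The 88 distinct genes that were 2-fold lower in every pair held some neighbours in the genome. Casp1 and Casp4 are adjacent, Klra8 and Klra7 on chromosome 6 have 1 gene between them, Slamf6 and Ncstn on chromosome 1 have 2, and Coch and Gm5785 on chromosome 12 have 3. In 84 of the 116 lower probe sets the groups did not overlap, and in 16 of the 25 higher ones. Over all tested probe sets the groups did not overlap in 1821 (8.09%), with the expansions lower in 4.9% and higher in 3.19%. These shares are a description, since the 2-fold rule and the overlap rest on the same values. In 16 of the 116 no expansion was above background.

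Markers of other cells moved with some of these differences, and their part in the results was not tested. The list for CD4 and regulatory T cells summed to 820 to 1076 in the expansions and 2357 to 7350 in the partners. Its difference was carried by Ikzf2 and Ctla4, while Cd4 was above background in only 2 of the 6 samples, at 43.9 and 101 in the partners of mice 2 and 3. Foxp3, the defining factor of regulatory T cells, read 95.4, 70.8 and 41.6 in the clones and 42.2, 119 and 59.0 in the partners. NK cell markers summed to 9345 to 23500 in the expansions and 18620 to 48250 in the partners. Eomes was the largest part in every expansion, and Eomes or Klra8 in the partners. Ncr1, the defining NK receptor, was below background in all 6 samples.

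Cd163l1, a scavenger receptor gene of gamma delta T cells, carried the list of that lineage and read 15.3 in expansion 2 and 9455 in its partner, but 8634 and 17240 in expansions 3 and 4 and 6021 and 11880 in theirs. B cell markers summed to 5932 to 38900 in the expansions and 6122 to 19400 in the partners. Ighm was the largest part except in expansion 4, where Cd22 read 2370 and Ighm 2013. Pax5 was at or below background except in polyclonal sample 3 (99.8) and expansion 4. Myeloid markers summed to 2255 to 8972 and 2028 to 6418. None of the markers was at 0 on any array.

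Purity differed most in mice 2 and 3 and hardly in mouse 4, where both samples were at 97% or above. In mouse 4 alone the difference was -3.65 for Itga4, -3.05 for Gzmk, -3.36 for Ikzf2, -4.70 for Nr4a2 and -3.25 for Casp1. It was -4.30 for Klra8, -2.45 for Coch, -2.51 for Rpl39l and 3.71 for Slc35f3. For Itga4, Gzmk, Coch and Rpl39l that was the smallest difference of the 3 pairs. The second probe set of Ikzf2 stood at -2.31 in mouse 4, its smallest as well. With sort purity as a covariate 11 probe sets passed, among them 5 of the 14; the calls for Itga4, Gzmk, Ikzf2, Casp1, Coch and Rpl39l were lost and those for Slc35f3, Nr4a2 and Klra8 kept. Under that covariate the brightest probe set of Itga4 stood at -3.56 (adjusted p = 0.0700) and the second at -3.09. Gzmk stood at -2.99, Coch at -2.99, Ikzf2 at -2.93 (-1.93 on its second probe set), Casp1 at -2.65 and Rpl39l at -2.22. Those kept stood at 3.955 for Slc35f3, -4.04 for Nr4a2 and -5.05 for Klra8. The covariate leaves 1 residual degree of freedom. The array of expansion 4 carries another scanner record than the other 7, which cannot be told apart from that sample. RNA was amplified in a double procedure, and in bulk samples fewer expressing cells and less RNA per cell cannot be told apart.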

How the data were processed

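Total RNA of sorted, frozen cells was amplified in a double round, labelled and hybridised to mouse whole-genome 3' arrays, per the labels' protocols. The authors deposited linear intensity values per probe set, for which the submitters' processing notes name MAS5 without a version; the values of each array have a trimmed mean of 500. From these, log2(intensity + 5) was taken for all probe sets but the array's control ones, and probe sets with a mean above the median of the table over the 6 arrays were kept. The R 4.3.3 package limma 3.58.1 gave the paired differences (eBayes with an intensity trend, mouse as a block, 2 residual degrees of freedom), adjusted by the Benjamini-Hochberg method over all 22518 probe sets, two-sided, with a threshold of 0.05.

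Pairing comes from the labels, since both samples of a number are from the same mouse; their deviations from the group means correlated at 0.09, 0.12 and 0.30, against -0.41 to 0.255 between samples of different mice, so the pairing rests on the labels and not on these values. p-values and SEs do not measure the spread over 3 animals alone. The limma fit moderates the variance of each probe set towards that of probe sets of similar signal. That prior had 10.66 degrees of freedom against 2 residual ones, so most of the weight came from other probe sets. Ctla4 had an SD of 2.64 over its paired differences and an SE of 0.73. Dsg2 had an SD of 0.14 and an SE of 0.40. Depth has no meaning on arrays, and the number of arrays limits the precision. Genes named are those past the threshold, the 15 higher and 15 lower with the smallest p and the 10 each with the largest smallest-of-3 difference, up to 4 a list by p, all with the same sign in every pair and, outside the lists, bright above background, then Itga4, the sorting genes and disagreeing probe sets. Eomes, Gzma, Col1a2 and others without a shared direction, and the marker genes, were chosen after their values were seen. A gene that the rule also names is not reported here. The members and lists were chosen with earlier results of these data known. A gene in a list is taken by its brightest probe set, and probe sets with several gene names are unnamed. Alternatives were other pseudocounts, normalizations, filters, fits and thresholds, a floor at background and leaving out each pair.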

Additional observations from a re-analysis of the deposited data

How the results depend on the processing

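Of 73 named probe sets, 71 kept the direction of their difference in every alternative tried for them; the exceptions came with sort purity as a covariate, where the dim probe set of Itga4 stood at 0.27 and Aim2 at 0.22. The count of 14 past the threshold (13 lower, 1 higher) was 8 (7 lower) with a pseudocount of 1, 5 (4 lower) with quantile normalization, 25 (24 lower) with a floor at background, 23 (22 lower) without a filter and 28 (27 lower) at an adjusted p of 0.10. A filter at the 75th percentile gave 20, all lower and 0 higher, and sort purity as a covariate 8 lower and 3 higher. Without the replicate block the count was 0, with 0 lower and 0 higher (699 at an unadjusted p under 0.05 in limma), and without the intensity trend also 0 (1126 unadjusted). Leaving out each pair gave 17 to 132 (16 to 127 lower, 1 to 24 higher); without mouse 2 the calls for Klra8 and Coch were lost (adjusted p = 0.119 and 0.0532). Same-sign counts of 2265 higher and 3390 lower became 3717 and 2204 after median centring, 4962 and 6230 without a filter, 1161 and 1693 at the 75th percentile, and 4231 to 5777 and 5578 to 7039 with a pair left out. The 2-fold count of 25 higher was 38 with a pseudocount of 1, 6 with 32, 46 with quantile normalization, 59 with centring, 13 with a floor, 327 without a filter, 5 at the 75th percentile, 184 at 1.5-fold, 2 at 3-fold and 155 to 267 with a pair left out. That of 116 lower was 69 with a pseudocount of 32, 75 with centring, 465 without a filter, 29 at the 75th percentile, 471 at 1.5-fold, 34 at 3-fold and 243 to 804 with a pair left out. The difference between the subclasses, at 0, was 14 with a pseudocount of 32, 12 with the filter on all 8 arrays and 32 to 262 with a pair left out. Fewer samples or genes enter the fits with a pair left out or a stricter filter; for the rest the cause was not tested. Signals near background limit Coch, Ryr3 and Rab39b, with no clone above it, and Rpl39l, Lratd1, Pdcd1, Havcr2 and Aim2, with 1 of 3.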
